A study of Mus musculus with 11 samples.

Results

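The neuronal and synaptic transcripts of GL261 tumours were followed through 36 genes of neuron identity, the cytoskeleton, vesicle release, transmitters, glutamate receptors, postsynaptic scaffolds and sodium channels, a list matched by gene symbol alone. All 36 were found among the 50686 gene identifiers of the count tables, and all 36 passed the filter on low counts in bulk tumours, where 17028 genes were tested. In microglia sorted from such tumours 20 of the 36 passed the filter, out of 14872 tested genes. Eno3, which encodes the muscle form of enolase and not the neuronal form, and Thy1, which mouse T cells carry as well as neurons, belong to the list and are described with the markers of those other cells.

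Neurons signal by releasing transmitter from vesicles. The SNARE proteins Snap25, Vamp2 and Stx1a drive the fusion of vesicles with the membrane, Syt1 senses calcium and complexins clamp and assist the step. Glutamate released from excitatory terminals acts on AMPA and NMDA receptors held by scaffolds such as Dlg4, while GABA made by Gad1 and Gad2 is the transmitter of inhibitory neurons. GL261 is a mouse glioma line that grows as an infiltrating mass, so a piece of tumour can hold neurons of the brain around it, whereas microglia are macrophages of the brain and do not build synapses of their own.

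The series held 4 groups of C57BL/6 mice. In Cx3cr1-Rheb1 Δ/Δ mice (KO in the labels, called Rheb1 Δ/Δ here), a tamoxifen-dependent Cre knocked into Cx3cr1 removed the floxed part of Rheb1, which encodes an activator of mTORC1, from cells that express Cx3cr1. Rheb1 fl/fl mice (WT in the labels) carried the floxed gene without the Cre and received tamoxifen too. GL261 cells were injected into the brain at 6 weeks of age, 3 weeks after tamoxifen, and samples were taken about 3 weeks after tumour initiation. Bulk tumours gave 3 Rheb1 Δ/Δ libraries (replicates 26, 36 and 37) and 3 Rheb1 fl/fl libraries (replicates 35, 38 and 110) from RNA of fixed, paraffin-embedded sections. Tumour-associated microglia (TAM-MG), gated as live CD11b+ CD45low cells, gave 3 Rheb1 Δ/Δ libraries (replicates 54, 63 and 65) and 2 Rheb1 fl/fl libraries (replicates 74 and 78). The labels do not say that libraries of a group came from separate animals, so the p-values measure the spread between these samples. The Cre follows Cx3cr1, and the injected GL261 cells carry no Cre. The paper also found the reporter of the Cre in part of the tumour macrophages that come from bone marrow.

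The libraries held 14940787 to 21991348 counts in bulk tumours and 20765767 to 29947977 in TAM-MG. Rheb, the targeted gene, reached 225, 125 and 146 CPM, the normalised read count on the scale of library size, in Rheb1 Δ/Δ tumours, against 348, 235 and 329 CPM in Rheb1 fl/fl tumours. In TAM-MG it reached 67.8, 70.0 and 71.2 CPM in Rheb1 Δ/Δ mice, against 86.5 and 164 CPM in Rheb1 fl/fl mice. It was lower in every Rheb1 Δ/Δ library than in every Rheb1 fl/fl library of the same kind. Bulk tumours also hold cells that the Cre does not target, and the source of the Rheb difference there was not tested. The microglia and macrophage list summed to 51316 to 71804 CPM in TAM-MG, against 794 to 4593 CPM in bulk tumours. Here and below, values are given in the order of the replicates just named. CPM are scaled within bulk tumours or within TAM-MG unless another scale is named. Genes that differed by 1.5-fold or more at an adjusted p under 0.05 were called.

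Many neuronal genes hold an RE1 site near their start, the element bound by the repressor REST, which keeps neuronal genes silent outside neurons. The RefSeq promoter table of GRCm38.p6 matched 25 of the 36 members, and the 250 bases before each start were searched on both strands. The 4 windows printed here hold a core of this element, or 1 side of it, in members that reach from the release machinery to the receptors. Capitals mark the matched letters, which for Gria2 and Map2 are those of the opposite strand.
Gad2 (chr2:22622147-22622196, + strand): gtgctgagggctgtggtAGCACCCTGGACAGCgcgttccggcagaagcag
Gria2 (chr3:80802974-80803023, - strand): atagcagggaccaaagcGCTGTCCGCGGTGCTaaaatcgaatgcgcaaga
Syn1 (chrX:20921119-20921168, - strand): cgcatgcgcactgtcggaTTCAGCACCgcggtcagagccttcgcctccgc
Map2 (chr1:66175088-66175137, + strand): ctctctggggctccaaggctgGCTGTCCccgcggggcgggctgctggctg
Each window lies within the 250 bases upstream of the start of its gene and reads 5′ to 3′ along the gene. The core, searched on either strand as AGCACC and GGACAGC with 2 bases between them, was present in 2 of 25 matched members (Gad2 and Gria2) and in 9 of 27025 genes of the table (0.0333%). Its left side alone, TTCAGCACC, was present in Syn1 and in 0.348% of genes, and its right side alone, GGACAGC, in Map2, Gad2 and Gria2 and in 6.14% of genes. The right side overlaps the longer core in Gad2 and Gria2. The cyclic AMP element TGACGTCA was present in Syn1 alone among the members, and in 1.77% of genes. A match describes the letters of these windows and is not a measured site.

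The first comparison set Rheb1 Δ/Δ tumours against Rheb1 fl/fl tumours. The 36 members leaned to the higher side in Rheb1 Δ/Δ tumours, but none was called. The quasi-likelihood test of edgeR, the main test, called no gene at all (0% of 17028). DESeq2, edgeR's likelihood ratio test and limma on TPM called no member either, although DESeq2 called 470 genes (2.76%) and the likelihood ratio test 383 (2.25%). Of the 36 members, 27 had a positive log2 fold change, against 50.2% of tested genes, and the members' median was 0.39 against 0.00 over all tested genes. At an unadjusted p under 0.05 there were 2 members on the higher side, Gria1 and Rbfox3, and 0 on the lower side, beside 3.82% and 5.19% of tested genes. Groups did not overlap for 1 member, the sodium channel gene Scn1a, which was higher in every Rheb1 Δ/Δ tumour, where 7.82% of tested genes were so placed, and no member was higher in every Rheb1 fl/fl tumour (9.23% of tested genes). Where all libraries were set to the same mean log CPM, which moved the median of all genes to 0.12, 33 members were positive with a median of 0.49. In whole tumours, a different number of neurons, a different amount of RNA per neuron and RNA of these genes from other cells cannot be told apart.

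**Figure D1:**
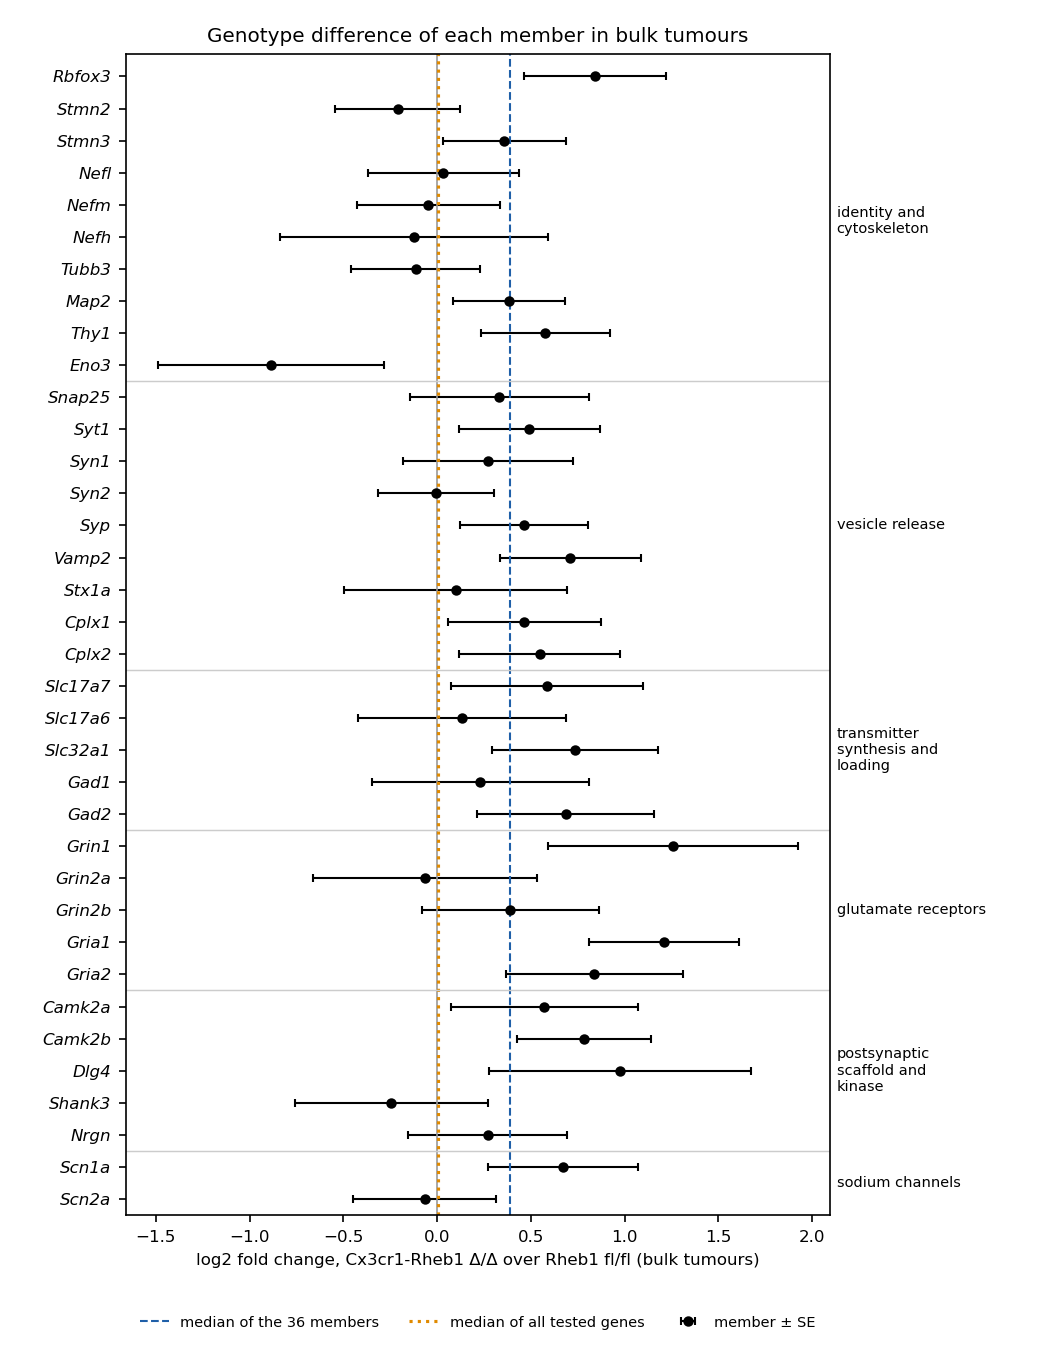
The log2 fold change of Rheb1 Δ/Δ over Rheb1 fl/fl bulk tumours is plotted for each of the 36 members with its SE, grouped by role, with dashed and dotted lines at the medians of the members and of all tested genes. Of the 36 points, 27 lie right of 0, and the members' median of 0.39 stands beside 0.00 for all tested genes.

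The 3 Rheb1 Δ/Δ tumours lay further apart than the means of the genotypes. The summed level of the members was 10771, 12156 and 4609 CPM in Rheb1 Δ/Δ tumours, against 6477, 6161 and 7824 CPM in Rheb1 fl/fl tumours. The group means were 9179 ± 4018 CPM in Rheb1 Δ/Δ tumours and 6821 ± 883 CPM in Rheb1 fl/fl tumours (SD, n = 3 each), so that the Rheb1 Δ/Δ values lay on both sides of the range of the Rheb1 fl/fl tumours. Replicate 36 was the highest of the 6 tumours for 19 of 36 members (16.8% of tested genes), and replicate 37 the lowest for 15 (16.9%). Replicate 36 exceeded replicate 37 in 34 of 36 members, all but Tubb3 and Slc17a6, beside 49.4% of tested genes.

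The values therefore turned on which Rheb1 Δ/Δ tumour was counted. Without replicate 37 the median of the members was 0.72, 31 of 36 were positive and 14 were at an unadjusted p under 0.05, all higher, beside 5.27% of tested genes on the higher and 7.69% on the lower side. Groups then did not overlap for 20 members, all higher in Rheb1 Δ/Δ tumours, where 15% of tested genes were so placed, and still none was called. Without replicate 36 the median was 0.06, 21 members were positive and 0 were at an unadjusted p under 0.05.

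Markers of other cells moved with these tumours. The astrocyte list, which holds Gfap, Aqp4 and the glutamate transporter Slc1a2, summed to 4804, 5644 and 1842 CPM in Rheb1 Δ/Δ tumours, against 3917, 3926 and 5543 CPM in Rheb1 fl/fl tumours, with 4 of 10 genes on the higher side, and was lowest in replicate 37 as the members were. Genes of myelin and oligodendrocytes, of which 3 of 10 were on the higher side, summed to 3367, 4179 and 2472 CPM in Rheb1 Δ/Δ tumours, against 3647, 3762 and 3971 CPM in Rheb1 fl/fl tumours, again lowest in replicate 37. Proliferation genes, such as Mki67 and Top2a, ran the other way within the Rheb1 Δ/Δ tumours, at 1147, 451 and 1597 CPM, against 999, 1190.1 and 779 CPM in Rheb1 fl/fl tumours. The lowest sum of proliferation genes and the highest of the members were thus in replicate 36, and the reverse held in replicate 37. The microglia and macrophage list summed to 794, 1172 and 1642 CPM in Rheb1 Δ/Δ tumours, against 2601, 2807 and 4593 CPM in Rheb1 fl/fl tumours, with 0 of 12 genes on the higher side and no overlap of the sums. Mitochondrial transcripts took 10.3, 8.68 and 6.09% of counts in Rheb1 Δ/Δ tumours, against 6.48, 7.07 and 5.88% in Rheb1 fl/fl tumours, with replicates 26 and 36 the highest. The part of these values in the members' differences was not tested.

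**Figure D2:**
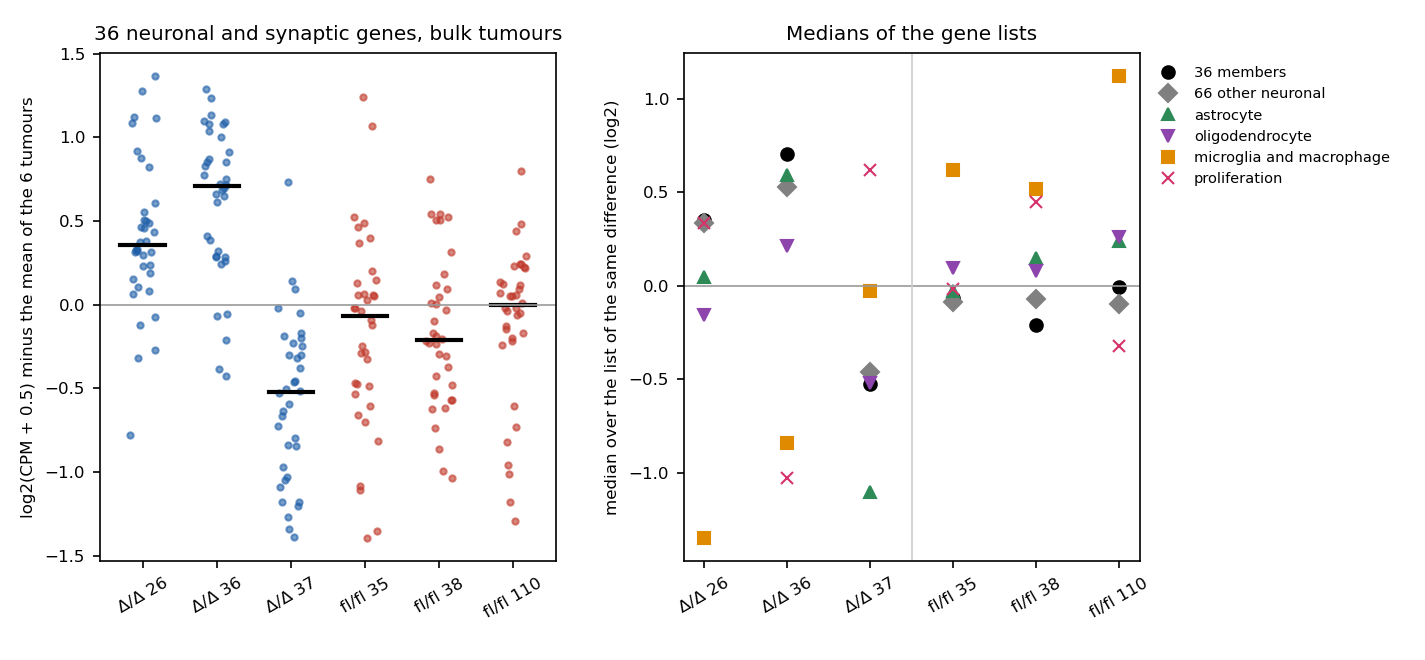
Left, for each bulk tumour the 36 members' log2(CPM + 0.5) minus the gene's mean over the 6 tumours, with bars at the medians; right, the medians of the same difference for the members and for 5 other lists. The members' medians were 0.35, 0.71 and -0.52 in Rheb1 Δ/Δ replicates 26, 36 and 37 and -0.06, -0.21 and 0.00 in Rheb1 fl/fl replicates 35, 38 and 110; the proliferation list lies at 0.33, -1.02 and 0.62 in the Rheb1 Δ/Δ tumours.

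The genes of neuron identity and the cytoskeleton were split, with 5 of 10 on the higher side and a median log2 fold change of -0.01 (range -0.88 to 0.84). Rbfox3 encodes NeuN, the nuclear splicing factor by which mature neurons are stained, and had 174, 318 and 132 CPM in Rheb1 Δ/Δ tumours, against 84.2, 121 and 143 CPM in Rheb1 fl/fl tumours. The lowest Rheb1 Δ/Δ tumour lay among the Rheb1 fl/fl tumours and the highest, replicate 36, stood well above them (log2 fold change 0.84, SE 0.38, adjusted p = 0.554, unadjusted p = 0.0494). Map2, a microtubule protein of dendrites, had 459, 462 and 308 CPM in Rheb1 Δ/Δ tumours, against 244, 355 and 344 CPM in Rheb1 fl/fl tumours (log2 fold change 0.38, SE 0.30, adjusted p = 0.758), with replicate 37 again within the Rheb1 fl/fl range.

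Thy1, a surface glycoprotein of neurons and of mouse T cells, had 417, 482 and 214 CPM in Rheb1 Δ/Δ tumours, against 247, 203 and 296 CPM in Rheb1 fl/fl tumours (log2 fold change 0.58, SE 0.34, adjusted p = 0.67). The T cell list ran the other way, with 0 of 6 tested genes on the higher side and a sum of 9.72, 12.5 and 23.8 CPM in Rheb1 Δ/Δ tumours, against 38.1, 33.1 and 126 CPM in Rheb1 fl/fl tumours, and Thy1 stood above the sum of that list in each tumour. These levels were low, with 5, 2 and 2 of the 8 listed genes at 0 counts in Rheb1 Δ/Δ tumours, against 0, 1 and 0 in Rheb1 fl/fl tumours. The paper, by contrast, reported more CD8 and CD4 T cells in Rheb1 Δ/Δ tumours, by cell fractions estimated from bulk RNA, flow cytometry and tissue staining. This difference from the paper was not tested. Stmn3, which regulates microtubules in neurons, had 204, 309 and 166 CPM in Rheb1 Δ/Δ tumours, against 203, 134 and 192 CPM in Rheb1 fl/fl tumours (log2 fold change 0.36, SE 0.33, adjusted p = 0.802). Its relative Stmn2, a gene of growing axons, was placed on the lower side, at -0.21 on the log2 scale.

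The neurofilament genes, which build the axonal cytoskeleton, showed no common side. The log2 fold changes of the light, medium and heavy chains were 0.03 (Nefl), -0.05 (Nefm) and -0.12 (Nefh), with SE of 0.40, 0.38 and 0.71. Nefm had 58.8, 86.9 and 78.1 CPM in Rheb1 Δ/Δ tumours, against 46.1, 104 and 80.7 CPM in Rheb1 fl/fl tumours (adjusted p = 0.985), and the groups overlapped. Nefl and Nefm share exonic bases on opposite strands, and since the strand used in counting is not given in the sources used here, reads of the shared bases cannot be told apart. Tubb3, the neuronal beta tubulin, was near level at -0.11.

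Eno3 was the member furthest on the lower side, with 14, 23.2 and 21.3 CPM in Rheb1 Δ/Δ tumours, against 58.4, 35.2 and 14.5 CPM in Rheb1 fl/fl tumours (log2 fold change -0.88, SE 0.60, adjusted p = 0.713). Rheb1 fl/fl replicate 110 lay within the range of the Rheb1 Δ/Δ tumours, and the other two Rheb1 fl/fl tumours above it. The neuronal enolase gene Eno2, named here after its values were seen, had 219.6, 321 and 142 CPM in Rheb1 Δ/Δ tumours, against 182, 238 and 165 CPM in Rheb1 fl/fl tumours (log2 fold change 0.22, SE 0.34, adjusted p = 0.896). Genes of skeletal muscle summed to 68.7, 48.5 and 49.4 CPM in Rheb1 Δ/Δ tumours, against 15.1, 34 and 15.9 CPM in Rheb1 fl/fl tumours, with all 5 of its tested genes on the higher side and the defining marker Ckm at 0 counts in all 6 bulk tumours.

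**Figure D3:**
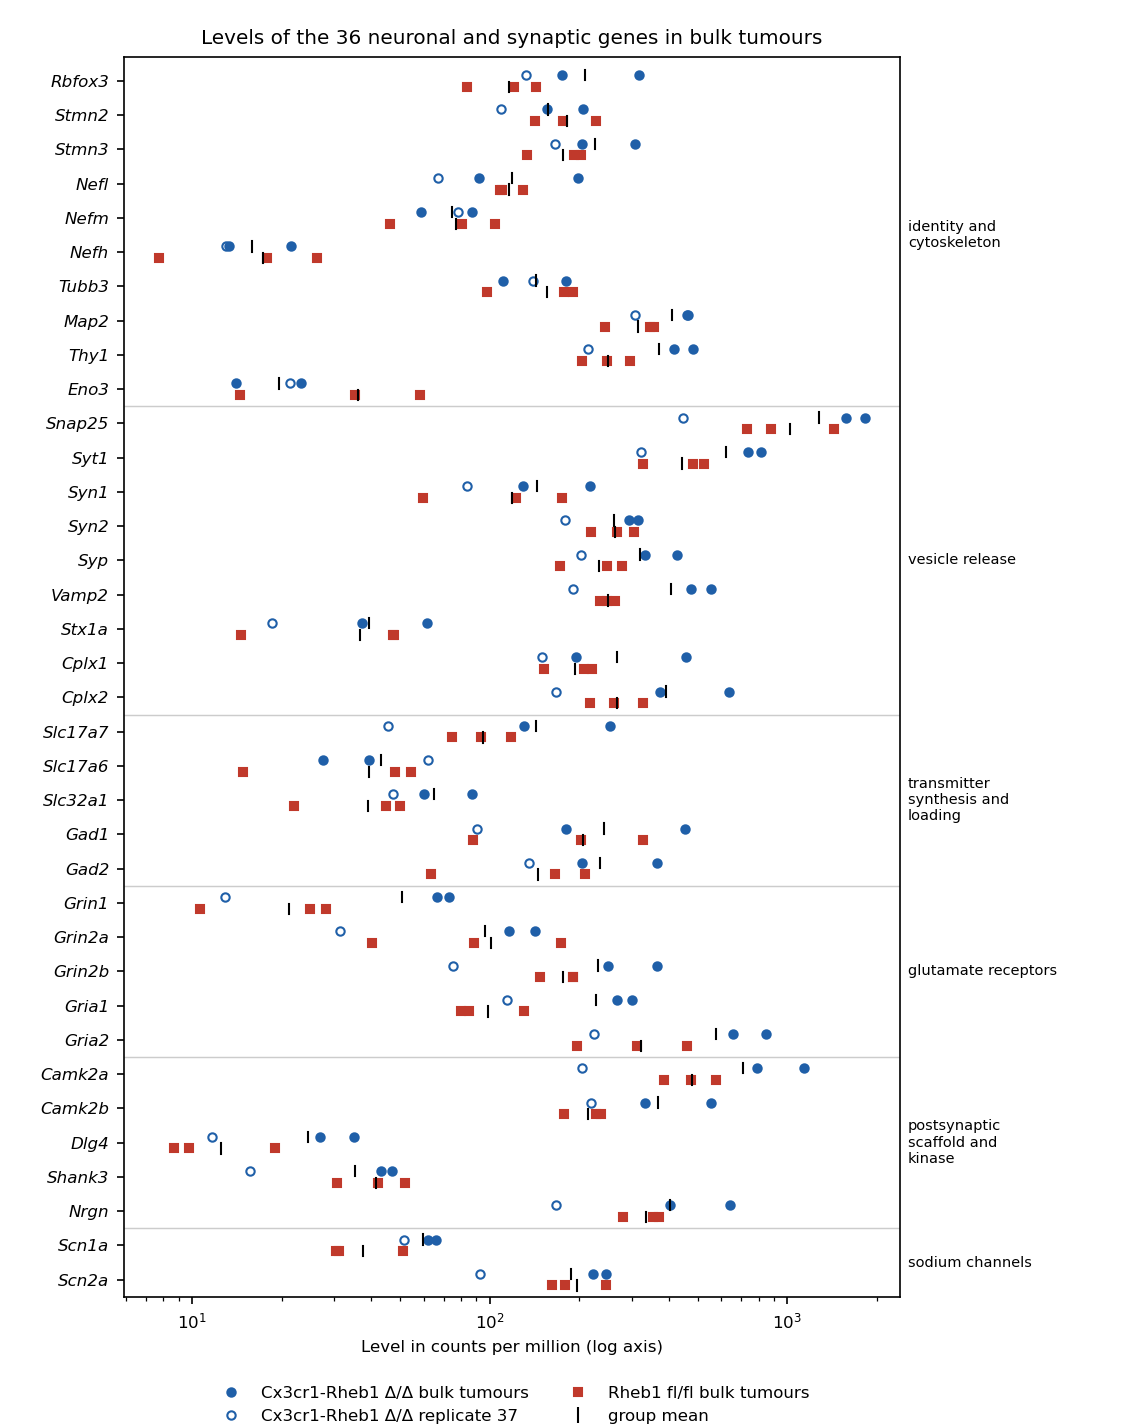
Levels of the 36 members in CPM on a log axis, with circles for the 3 Rheb1 Δ/Δ tumours (open for replicate 37), squares for the 3 Rheb1 fl/fl tumours and bars at the group means. Replicate 37 is the lowest of the 6 tumours for 15 members, and Scn1a is the only member whose groups do not overlap.

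Of the vesicle release genes 8 of 9 were on the higher side, with a median log2 fold change of 0.46 (range -0.01 to 0.71) and none called. Snap25, the membrane SNARE with the highest CPM of all members, had 1819, 1576 and 446 CPM in Rheb1 Δ/Δ tumours, against 733, 879 and 1439 CPM in Rheb1 fl/fl tumours (log2 fold change 0.33, SE 0.48, adjusted p = 0.888). Replicate 37 was below every Rheb1 fl/fl tumour, and replicates 26 and 36 were above each of them. Syt1, the calcium sensor of fast release, had 735, 814 and 323 CPM in Rheb1 Δ/Δ tumours, against 523, 327 and 481 CPM in Rheb1 fl/fl tumours (log2 fold change 0.49, SE 0.37, adjusted p = 0.746), with the same split. Cplx2, a complexin, had 374, 635 and 167 CPM in Rheb1 Δ/Δ tumours, against 217, 261 and 328 CPM in Rheb1 fl/fl tumours (log2 fold change 0.55, SE 0.43, adjusted p = 0.76).

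Synaptophysin, the vesicle membrane protein encoded by Syp, had 333, 426 and 203 CPM in Rheb1 Δ/Δ tumours, against 248, 172 and 278 CPM in Rheb1 fl/fl tumours (log2 fold change 0.46, SE 0.34, adjusted p = 0.736). Vamp2, the vesicle SNARE, had the largest log2 fold change of the group at 0.71 (adjusted p = 0.632). Stx1a, the syntaxin that pairs with Snap25, was low and scattered, with 37.3, 61.6 and 18.5 CPM in Rheb1 Δ/Δ tumours, against 47.3, 47.8 and 14.5 CPM in Rheb1 fl/fl tumours (log2 fold change 0.10, SE 0.60, adjusted p = 0.978). The synapsin genes Syn1 and Syn2, whose products tether vesicles, lay at 0.27 and -0.01 on the log2 scale, and Cplx1 at 0.46. Syn1 shares exonic bases with Araf, Syn2 with Timp4 and Syp with Gm14703, all on the opposite strand.

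All 5 genes of transmitter synthesis and loading were on the higher side (median log2 fold change 0.59, range 0.13 to 0.74), and none was called. Slc17a7 loads glutamate into vesicles of cortical neurons and had 130.1, 254 and 45.5 CPM in Rheb1 Δ/Δ tumours, against 74.4, 117 and 93.7 CPM in Rheb1 fl/fl tumours (log2 fold change 0.59, SE 0.51, adjusted p = 0.791). The GABA-making enzymes differed from it in which tumour stood highest. Gad1 had 454, 181 and 90.5 CPM in Rheb1 Δ/Δ tumours, against 88.1, 203 and 327 CPM in Rheb1 fl/fl tumours (log2 fold change 0.23, SE 0.58, adjusted p = 0.947), and Gad2 had 363, 204 and 136 CPM in Rheb1 Δ/Δ tumours, against 63.4, 209 and 165 CPM in Rheb1 fl/fl tumours (log2 fold change 0.68, SE 0.47, adjusted p = 0.717). Replicate 26 led for both, whereas replicate 36 led for Slc17a7. Slc32a1, the GABA vesicle transporter, and Slc17a6, the subcortical glutamate transporter, lay at 0.74 and 0.13, and Slc17a6 was the one member that was highest in replicate 37.

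The glutamate receptor genes held the 2 largest log2 fold changes of all members, with 4 of 5 on the higher side and a median of 0.84. Gria1, a subunit of AMPA receptors, had 269, 301 and 114 CPM in Rheb1 Δ/Δ tumours, against 130.5, 85.1 and 80.1 CPM in Rheb1 fl/fl tumours, or 228 ± 100.1 CPM in Rheb1 Δ/Δ tumours and 98.6 ± 27.7 CPM in Rheb1 fl/fl tumours (SD, n = 3 each). Replicates 26 and 36 were above every Rheb1 fl/fl tumour, and replicate 37 was above replicates 38 and 110 but below replicate 35. It had the lowest p of all members, but did not pass the test (log2 fold change 1.21, SE 0.40, adjusted p = 0.348, unadjusted p = 0.0115).

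Gria2, the subunit that limits calcium entry through AMPA receptors, had 849, 657 and 225 CPM in Rheb1 Δ/Δ tumours, against 311, 196 and 461 CPM in Rheb1 fl/fl tumours (log2 fold change 0.84, SE 0.47, adjusted p = 0.65). Grin2b, an NMDA receptor subunit, had 250.2, 366 and 75.3 CPM in Rheb1 Δ/Δ tumours, against 190.0, 148 and 189.7 CPM in Rheb1 fl/fl tumours (log2 fold change 0.39, SE 0.47, adjusted p = 0.862), and replicate 37 was the lowest tumour. Grin1, the obligatory NMDA subunit, had the largest log2 fold change of the 36 members, 1.26 with an SE of 0.66, at low levels of 12.9 to 72.9 CPM in Rheb1 Δ/Δ tumours and 10.6 to 28.1 CPM in Rheb1 fl/fl tumours. Grin2a lay at -0.06, and its highest tumour was the Rheb1 fl/fl replicate 35. Grin1 shares exonic bases with its antisense gene Grin1os, Grin2b with 3 annotated genes on the opposite strand and Gria2 with Gm25749 on its own strand.

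Of the postsynaptic genes 4 of 5 were on the higher side (median log2 fold change 0.57, range -0.24 to 0.97), again with none called. Camk2a, the kinase subunit of excitatory forebrain neurons, had 789.6, 1136 and 204 CPM in Rheb1 Δ/Δ tumours, against 573, 386 and 474 CPM in Rheb1 fl/fl tumours (log2 fold change 0.57, SE 0.50, adjusted p = 0.791). The span among Rheb1 Δ/Δ tumours took in all Rheb1 fl/fl values. Camk2b, its partner subunit, had 332, 555 and 218 CPM in Rheb1 Δ/Δ tumours, against 177, 237 and 228 CPM in Rheb1 fl/fl tumours (log2 fold change 0.78, SE 0.36, adjusted p = 0.557), and there replicate 37 lay inside the Rheb1 fl/fl range.

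Nrgn, which binds calmodulin in dendrites, had 402, 643 and 168 CPM in Rheb1 Δ/Δ tumours, against 281, 354 and 372 CPM in Rheb1 fl/fl tumours (log2 fold change 0.27, SE 0.42, adjusted p = 0.898). Shank3, a scaffold of the postsynaptic density, was one of 9 members on the lower side, with 46.9, 43 and 15.6 CPM in Rheb1 Δ/Δ tumours, against 51.8, 30.8 and 42.3 CPM in Rheb1 fl/fl tumours (log2 fold change -0.24, SE 0.51, adjusted p = 0.933). Dlg4, which encodes PSD-95, had a log2 fold change of 0.97 with an SE of 0.70.

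The sodium channels of the axon differed in side. Scn1a had 65.9, 61.9 and 51.4 CPM in Rheb1 Δ/Δ tumours, against 51, 31.1 and 30.4 CPM in Rheb1 fl/fl tumours (log2 fold change 0.67, SE 0.40, adjusted p = 0.669), so that the groups were apart, but by less than 1 CPM between the lowest Rheb1 Δ/Δ and the highest Rheb1 fl/fl tumour. Scn2a had 246, 222 and 92.5 CPM in Rheb1 Δ/Δ tumours, against 179, 162 and 246 CPM in Rheb1 fl/fl tumours (log2 fold change -0.07, SE 0.38, adjusted p = 0.978), with replicate 37 the lowest and a log2 fold change of 0.05 where all libraries were set to the same mean log CPM.

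TPM, which are scaled by transcript length and were made with another tool, covered 35 of the 36 members in bulk tumours (all but Nefm). The members' sum was 4599.7, 5119.6 and 1661 TPM in Rheb1 Δ/Δ tumours, against 3351, 2439.5 and 3829 TPM in Rheb1 fl/fl tumours, with replicate 37 again the lowest and both others above each Rheb1 fl/fl tumour. On log2(TPM + 1), 24 of 35 members were on the higher side, with a median difference of 0.15 by limma and none called. The log2 difference was negative for Stmn3, Slc17a7 and Nrgn, at -0.05, -0.07 and -0.27, where the counts gave a positive one. Per length, Thy1 had the highest mean over the 6 tumours (713 TPM), followed by Nrgn (514 TPM) and Stmn3 (309 TPM), and Scn1a the lowest (3.96 TPM).

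The measures parted for some members. Rbfox3 had 59.7, 102 and 27.3 TPM in Rheb1 Δ/Δ tumours, and in Rheb1 fl/fl tumours 39.3 TPM in replicate 35 and at most 0.00275 TPM in replicates 38 and 110, although the same libraries held 121 and 143 CPM of it. By limma on log2(TPM + 1) its log2 difference was 4.03 (unadjusted p = 0.0212, adjusted p = 0.386), against 0.84 by counts. For Shank3 the same fit gave -1.55 (unadjusted p = 0.0348, adjusted p = 0.438), against -0.24 by counts. Gria1 had 39.5, 29.8 and 1.56 TPM in Rheb1 Δ/Δ tumours, against 10.8, 5.76 and 5.09 TPM in Rheb1 fl/fl tumours, which put replicate 37 below every Rheb1 fl/fl tumour, unlike its CPM. Eno3 had 16.9, 0.815 and 16.4 TPM in Rheb1 Δ/Δ tumours, against 45.1, 33.8 and 20.2 TPM in Rheb1 fl/fl tumours, with replicate 36 far below its place in CPM.

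A wider list of 66 further neuronal genes, set by function, had 47 genes on the higher and 19 on the lower side in Rheb1 Δ/Δ tumours (median log2 fold change 0.23), and none was called. At an unadjusted p under 0.05 there were 2 on the higher side, Sv2a and Gabrb2, and 1 on the lower side. Sv2a, a vesicle glycoprotein, had 379, 416 and 228 CPM in Rheb1 Δ/Δ tumours, against 183, 169 and 223 CPM in Rheb1 fl/fl tumours (log2 fold change 0.83, SE 0.31, adjusted p = 0.438), and its groups did not overlap. Of the 66 genes, 5 were higher in every Rheb1 Δ/Δ tumour, where 7.82% of tested genes were so placed. The reverse held for 1 of the 66, beside 9.23% of tested genes. Gabrb2, a subunit of GABA-A receptors, had 22.3, 5.75 and 2.36 CPM in Rheb1 Δ/Δ tumours, against 0.111, 0.27 and 0.25 CPM in Rheb1 fl/fl tumours (adjusted p = 0.229).

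The wider list followed the same tumours. Replicate 37 was the lowest of the 6 for 34 of 66 genes (16.9% of tested genes). Replicate 36 was the highest for 28 (16.8% of tested genes) and replicate 26 for 21. By group, 11 of 12 channel and transport genes were on the higher side (median 0.48), with Slc12a5, the chloride exporter, at 0.18. Of 18 further release genes 12 were on that side (median 0.22), with Nsf, which takes SNARE complexes apart, at 0.20. Of 16 postsynaptic genes 12 were on it (median 0.18), with Ppp3ca, a calcineurin subunit, at 0.23.

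Identity genes outside the members were split, with 7 of 12 on the higher side (median 0.12), Celf4, a neuronal RNA-binding protein, at 0.35 and Stmn1 at -0.37. Stmn1 is also made by dividing cells. Of 8 interneuron and peptide genes 5 were on the higher side (median 0.42), with the opioid precursor Penk at 0.78.

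The sorted TAM-MG served as a check of neuronal RNA carried into a microglial sort. Nearly all members were far lower there than in bulk tumours. In the comparison of TAM-MG with bulk tumours over all 11 libraries, 35 of 36 members were called lower and 0 higher, beside 32.4% of 21342 tested genes called lower and 20.5% called higher. The median log2 difference of the members was -8.58, and that of all tested genes -0.89. On the common CPM scale of all libraries, the mean TAM-MG level was a median of 0.947% of the mean bulk level, with 18 members under 1% and 17 between 1% and 10%. Sort, fixation and RNA extraction differed together with the kind of sample and cannot be told apart.

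**Figure D4:**
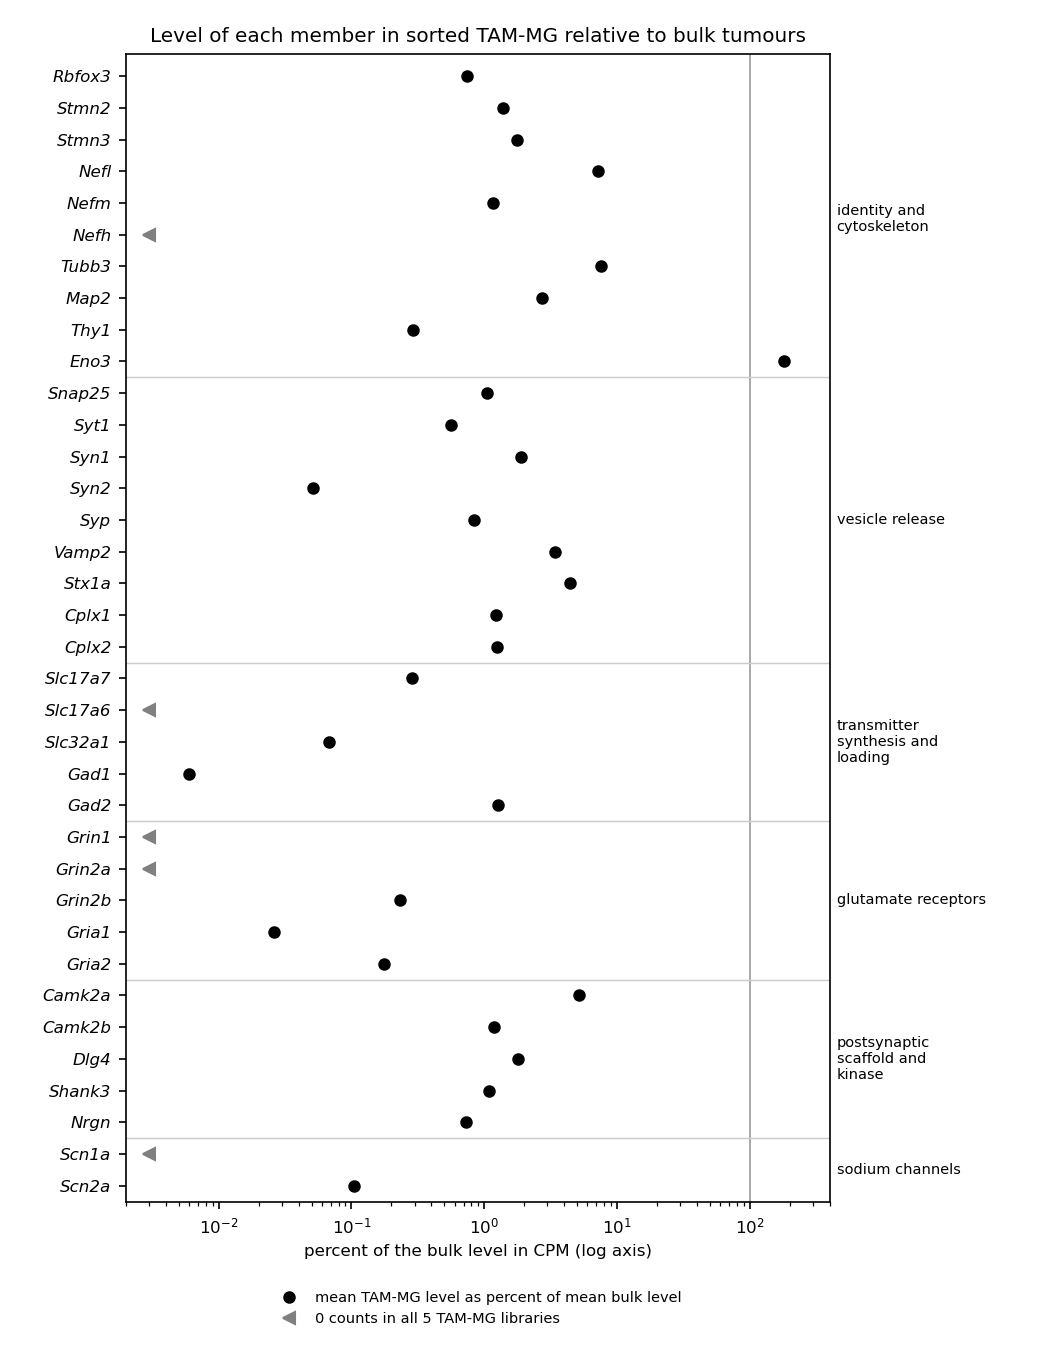
Mean level of each member in the 5 TAM-MG libraries as a percent of its mean level in the 6 bulk tumours, on a log axis, with triangles at the left edge for members with 0 counts in all TAM-MG libraries. The median is 0.947%, the highest below Eno3 is Tubb3 at 7.54%, and Eno3 lies at 181%.

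The 5 members with 0 counts in all TAM-MG libraries came from 4 roles: the receptor subunits Grin1 and Grin2a, the channel Scn1a, the transporter Slc17a6 and the heavy neurofilament Nefh. Against a floor of 3 counts over the TAM-MG libraries, these were at least 2621-fold (Grin2a), 1319-fold (Scn1a), 1188-fold (Slc17a6), 935-fold (Grin1) and 475-fold (Nefh) lower in TAM-MG than in bulk tumours, a bound that covers counting error only. Gad1 had 1 count in 1 TAM-MG library, and Gria1 reached 0.026% of its bulk level. The members that remained above 5% were Tubb3 (7.54%), Nefl (7.17%) and Camk2a (5.15%).

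The members without Eno3 summed to 0.0080, 0.00977 and 0.00985% of all counts in Rheb1 Δ/Δ TAM-MG and 0.00438 and 0.00767% in Rheb1 fl/fl TAM-MG. In bulk tumours they took 0.443 to 1.19%. Between 14 and 22 members had any count in a TAM-MG library, and 8 had counts in all 5. Snap25, the highest member in bulk tumours, had 14.4, 18.1 and 4.66 CPM in Rheb1 Δ/Δ TAM-MG, against 2.96 and 0.0517 CPM in Rheb1 fl/fl TAM-MG. Vamp2 had 11, 8.95 and 10.7 CPM in Rheb1 Δ/Δ TAM-MG, against 3.06 and 3.77 CPM in Rheb1 fl/fl TAM-MG, with every Rheb1 Δ/Δ library above both Rheb1 fl/fl libraries. The lists of other brain cells had values too. Astrocyte genes summed to 361, 462 and 512 CPM in Rheb1 Δ/Δ TAM-MG, against 323 and 642 CPM in Rheb1 fl/fl TAM-MG, and oligodendrocyte genes to 229, 178 and 218 CPM in Rheb1 Δ/Δ TAM-MG, against 293 and 243 CPM in Rheb1 fl/fl TAM-MG. Their part in the members' levels was not tested.

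Eno3 was the exception to the low levels. It had 67, 7.29 and 4.0 CPM in Rheb1 Δ/Δ TAM-MG, against 38.7 and 52.1 CPM in Rheb1 fl/fl TAM-MG, and its log2 difference of 0.95 between TAM-MG and bulk tumours did not pass the test (SE 0.68, adjusted p = 0.256). Without Rheb1 Δ/Δ replicate 54, which held the highest value, the difference was -0.29. The neuronal enolase gene Eno2 had 3.12, 0.691 and 5.64 CPM in Rheb1 Δ/Δ TAM-MG, against 0 and 10.4 CPM in Rheb1 fl/fl TAM-MG. Of the wider neuronal list 62 of 66 genes were called lower in TAM-MG and 1 higher. The gene called higher, Syngr1, which encodes a synaptogyrin and was named after its values were seen, had 320.4, 224 and 219.8 CPM in Rheb1 Δ/Δ TAM-MG, against 233 and 426 CPM in Rheb1 fl/fl TAM-MG.

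Between genotypes, no member was called in TAM-MG by edgeR's quasi-likelihood test, as no gene was (0% of 14872). Its likelihood ratio test called 0 of the 20 tested members, beside 245 genes. DESeq2 called 1 tested member, Gad2, beside 473 of 14872 genes (3.18%). Of the 20 members that passed the filter, 14 had a positive log2 fold change, beside 53.5% of tested genes, and their median was 1.51 against 0.08 for all tested genes. The median was the same with Gad2 and Syp, which had no counts in Rheb1 fl/fl TAM-MG, at their lower bounds. Over all genes, 16939, 16961 and 16383 had any count in Rheb1 Δ/Δ TAM-MG, against 15012 and 15453 in Rheb1 fl/fl TAM-MG. The part of this in the members' differences was not tested. Rheb1 fl/fl replicate 74 stood apart, with 22 of 36 members at 0 counts, against 14 in each other TAM-MG library. Without it, 17 of 27 tested members were positive, beside 60.0% of genes, with a median of 0.67 against 0.37 for all genes. Without replicate 78, which leaves only replicate 74, the median of 23 tested members was 5.00 against 0.39 for all genes. For the 20 members tested with all libraries, the medians were 0.89 without replicate 74 and 4.03 without replicate 78. A member could pass through the group in which it was high, so these counts are a description of the tested members and not of the list. At an unadjusted p under 0.05 were Gad2 and Syp, both higher, and 0 members lower, beside 5.47% and 2.3% of tested genes. Groups did not overlap for 8 members that were higher in every Rheb1 Δ/Δ library (Thy1, Snap25, Syp, Vamp2, Gad2, Gria2, Camk2a and Nrgn, beside 14.6% of tested genes) and for 1 that was higher in both Rheb1 fl/fl libraries (Tubb3, beside 11.5%).

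**Figure D5:**
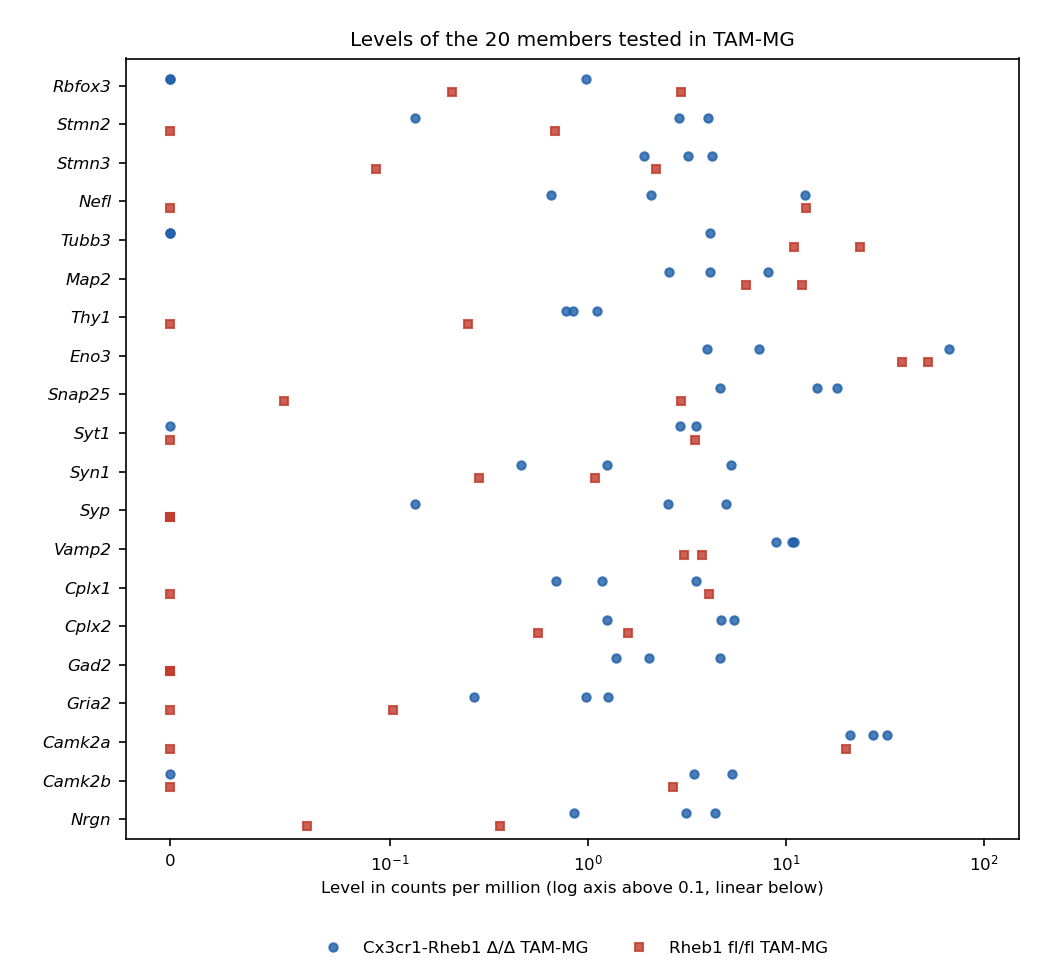
Levels in CPM of the 20 members tested in TAM-MG, with circles for the 3 Rheb1 Δ/Δ libraries and squares for the 2 Rheb1 fl/fl libraries; the axis is logarithmic above 0.1 CPM and linear below. Gad2 and Syp lie at 0 in both Rheb1 fl/fl libraries, and Eno3 reaches 67 CPM in Rheb1 Δ/Δ replicate 54.

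Gad2 had 104, 36 and 50 counts in Rheb1 Δ/Δ TAM-MG, against 0 and 0 counts in Rheb1 fl/fl TAM-MG. Against a floor of 3 counts over both Rheb1 fl/fl libraries, this was at least 44.6-fold higher (edgeR unadjusted p = 0.0112, adjusted p = 0.502). Syp had 3, 66 and 122 counts in Rheb1 Δ/Δ TAM-MG, against 0 and 0 in Rheb1 fl/fl TAM-MG, or at least 44.9-fold more (unadjusted p = 0.0265, adjusted p = 0.552). Both genes passed the filter only through the Rheb1 Δ/Δ group, in which they were high. Their bounds and p-values therefore describe these counts and are no independent test of the genotype. Gad1, the other GABA-making enzyme, did not accompany Gad2, with 1 count in Rheb1 Δ/Δ replicate 54 and 0 elsewhere.

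Most other members were uneven within a group. Camk2a had 21.1, 32.3 and 27.7 CPM in Rheb1 Δ/Δ TAM-MG, against 0 and 20.1 CPM in Rheb1 fl/fl TAM-MG (log2 fold change 1.43, SE 1.96, adjusted p = 0.944), and Rheb1 fl/fl replicate 74 alone was at 0. Without that library its log2 fold change was 0.44, and without replicate 78 it rested on a fitted value against 0 counts. Nrgn had 0.847, 3.15 and 4.41 CPM in Rheb1 Δ/Δ TAM-MG, against 0.0624 and 0.362 CPM in Rheb1 fl/fl TAM-MG (log2 fold change 3.71, SE 1.83, adjusted p = 0.597). Tubb3 had 4.15, 0 and 0 CPM in Rheb1 Δ/Δ TAM-MG, against 23.7 and 11 CPM in Rheb1 fl/fl TAM-MG (adjusted p = 0.786), where 2 Rheb1 Δ/Δ libraries were at 0. Eno3 was spread within Rheb1 Δ/Δ TAM-MG and overlapped (log2 fold change -0.80, SE 1.18, adjusted p = 0.949).

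The test of whether the genotype difference itself differed between TAM-MG and bulk tumours, over all 11 libraries, called 0 of 36 members, beside 48 of 21342 genes (0.225%). Only 20 of the 36 passed the filter within TAM-MG, and the others entered this fit through their bulk counts. For the 5 members with 0 counts in all TAM-MG libraries there was no TAM-MG difference to compare. DESeq2 called 5 members, beside 1210 genes (5.67%), and the likelihood ratio test 6, beside 835 genes (3.91%), with Gad2, Syp, Nrgn, Stx1a and Nefm called by both. At an unadjusted p under 0.05 were 6 members in which the difference was higher in TAM-MG (Gad2, Syp, Nrgn, Stx1a, Gria2 and Thy1, beside 9.3% of tested genes) and 3 in which it was lower (Nefm, Shank3 and Slc17a7, beside 2.93%). Gad2 was the closest to the threshold (unadjusted p = 0.000279, adjusted p = 0.0815).

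Several of these rested on 1 library. Nefm had 0, 0 and 0 counts in Rheb1 Δ/Δ TAM-MG, against 0 and 57 in Rheb1 fl/fl TAM-MG, and Shank3 had 0, 0 and 0 in Rheb1 Δ/Δ TAM-MG, against 0 and 27 in Rheb1 fl/fl TAM-MG, so that both came from Rheb1 fl/fl replicate 78 alone. Stx1a had 0, 134 and 8 counts in Rheb1 Δ/Δ TAM-MG, nearly all in replicate 63, against 0 and 0 in Rheb1 fl/fl TAM-MG. Gria2 had 6, 33 and 24 counts in Rheb1 Δ/Δ TAM-MG, against 0 and 2 in Rheb1 fl/fl TAM-MG, and Thy1 had 25, 22 and 19 in Rheb1 Δ/Δ TAM-MG, against 8 and 0 in Rheb1 fl/fl TAM-MG, so that both had counts in each Rheb1 Δ/Δ library. Slc17a7 had 0, 2 and 0 counts in Rheb1 Δ/Δ TAM-MG, against 1 and 20 in Rheb1 fl/fl TAM-MG.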

How the data were processed

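RNA was measured in 11 libraries made with SmartSeq2 and Nextera XT, 6 of GL261 tumours and 5 of TAM-MG. The authors aligned reads with STAR to Ensembl GRCm38 and deposited raw counts per gene, and deposited TPM made with Salmon and summed to genes (the STAR and Salmon versions are not given in the sources used here). The other deposited values, the TAM-MG TPM, end in 1 unnamed row equal to 100% of the sum, as the TAM-MG counts do, and it was left out. The bulk TPM values cover 12719 genes, none with a highest value below 1.01. Of 50686 gene IDs, 99.4% matched a symbol. Counts were tested across all genes with edgeR 4.0.16 in R 4.3.3 (quasi-likelihood, TMM, filterByExpr with a minimum count of 10, Benjamini-Hochberg adjustment), 2 of whose contrasts used all 11 libraries. The fit was tested on simulated data. Alternatives used DESeq2 1.42.0, the likelihood ratio test, other scalings and filters, limma 3.58.1 on log2(TPM + 1) and log2(TPM + 0.1), and each library left out. Libraries held 14940787 to 29947977 counts, and intervals and floors cover counting error only. The members and lists were chosen with earlier results of these data known. Full values are given for the 3 members of each role with the highest CPM and those at an unadjusted p under 0.05 in a comparison, and of other neuronal lists for the 2 highest genes and any at that p; Eno3, Tubb3 and Vamp2 were added, and between sample kinds, where nearly all members passed, ranges are given. Some genes of the other neuronal lists that this rule names are not reported here.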

Additional observations from a re-analysis of the deposited data

How the results depend on the processing

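No member was called in bulk tumours under any scaling, filter, test or left-out library, and 34 (DESeq2) or 35 members were called lower in TAM-MG than in bulk tumours throughout; DESeq2 gave no adjusted p for Tubb3. The median of the members in bulk tumours stayed positive, from 0.06 without Rheb1 Δ/Δ replicate 36 to 0.72 without Rheb1 Δ/Δ replicate 37, as did the ratio of the summed levels, from 1.13 to 1.68. In TAM-MG, DESeq2 called 1 member, Gad2 (log2 fold change 8.51), beside 473 genes. The number of members whose genotype difference differed between TAM-MG and bulk tumours was 1 with no filter on low counts (76 of all genes), 6 with the likelihood ratio test (835) and 5 with DESeq2 (1210), and 0 to 2 with a library left out (1 to 361 of all genes): Syp and Tubb3 without Rheb1 Δ/Δ replicate 54, Nefm without Rheb1 fl/fl replicate 74, and Camk2a and Stmn3 without Rheb1 fl/fl replicate 78. The cause of these changes was not tested.

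The sign turned for a few log2 fold changes that were not called. With limma on log2(TPM + 1), with or without a filter, it was -0.046 for Stmn3, -0.067 for Slc17a7 and -0.27 for Nrgn, and on log2(TPM + 0.1) it was -0.046, -0.075, -0.28 and, for Gria2, -0.018. With equal mean log CPM it was 0.057 for Nefm and 0.047 for Scn2a in bulk tumours, and -0.064 for Syt1 in TAM-MG. With 1 library left out, the ranges that crossed 0 in bulk tumours were -0.34 to 0.20 (Nefm), -0.0095 to 0.74 (Snap25), -0.39 to 0.44 (Stx1a), -0.12 to 1.01 (Slc17a7), -0.61 to 0.72 (Gad1), -0.11 to 0.81 (Grin2b), -0.51 to 0.11 (Shank3), -0.23 to 0.64 (Nrgn) and -0.31 to 0.26 (Scn2a), and in TAM-MG -3.16 to 0.67 (Rbfox3) and -0.67 to 8.82 (Syt1), where a lone Rheb1 fl/fl library is assumed to vary like the other group. Stmn3 and Camk2a in TAM-MG were 0.51 and 0.44 without Rheb1 fl/fl replicate 74. The Eno3 difference between TAM-MG and bulk tumours ran from -0.29 to 1.07.

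No paired analysis was possible because the genotypes share no replicate numbers. Few samples and low TAM-MG counts limit the precision: 4 members had at least 10 counts in all TAM-MG libraries.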
